A study of Mus musculus with 10 samples.

Results

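The effect of 1 missing Trp53 allele was examined in erythroid progenitors that also carried 1 Ddx41 allele. The comparison was of 2 Ddx41+/-Trp53+/- mice (replicates 46 and 47) with 2 Ddx41+/-Trp53+/+ mice (replicates 32 and 34), which are 4 of the 10 RNA-seq libraries of the series and were chosen by their labelled genotypes. The other 6 libraries were 3 Ddx41+/+Trp53+/+ mice (replicates 10, 11 and 12) and 3 Ddx41+/+Trp53+/- mice (replicates 22, 23 and 24). All mice were BoyJ recipients of donor bone marrow that carried the tamoxifen-inducible RosaCreERT2. In the Ddx41+/- groups 1 Ddx41 allele of the donor was floxed, so it was removed by Cre after transplant, whereas the Trp53 knockout allele was inherited and was therefore present in every donor cell throughout life. All recipients, including the Ddx41+/+ controls, received 1 mg of tamoxifen per injection in 2 rounds, and bone marrow was harvested 8 weeks after the transplant. The recipients were lethally irradiated, and the stated sort for CD71+Ter119+ cells (called R2) does not name a donor marker. Sexes and ages were not given in the sources used here. Ddx3y from the Y chromosome was at 52.1 to 68.6 CPM (counts scaled to a common library size) in all 10 libraries, whereas Xist was at 1.16 CPM or less.

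Trp53 encodes p53, a transcription factor that is kept low by the ubiquitin ligase MDM2 and that accumulates after DNA damage or when ribosome production is disturbed. Its best known targets are Cdkn1a, which encodes the cell cycle inhibitor p21, Mdm2 itself, and genes of apoptosis such as Bax. DDX41 is a DEAD-box RNA helicase, and p53 is a known restraint on red cell production when erythroid progenitors make too few ribosomes. The question of the comparison was which transcripts change when the p53 gene dose is lowered in progenitors with reduced Ddx41.

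The libraries held 16031406 and 7866648 counts in the Ddx41+/-Trp53+/+ mice (replicates 32 and 34) and 16869205 and 17949900 counts in the Ddx41+/-Trp53+/- mice (replicates 46 and 47). Replicate 34 was the shallowest of the series. The sorted cells had the markers of late erythroid progenitors. Slc4a1, which encodes the anion exchanger of the red cell membrane, was at 26282 and 27525 CPM in the Trp53+/+ mice and at 25470 and 27721 CPM in the Trp53+/- mice. Alas2, Tfrc, Klf1, Gata1 and Hemgn were also abundant in all 10 libraries. The globin genes were not: Hbb-bt had 0 counts in every library, Hbb-bs at most 17 counts and Hba-a1 at most 21 counts, so the globin markers that define this lineage were at or near 0 in these counts. Of the 75-base stretches of the Hba-a1 transcript, 62.2% also occur in Hba-a2. How reads that match both genes were counted is not given in the sources used here. A 0 in a library allows up to 3 counts and covers counting error only. Why the globin counts were so low was not tested, so they are not read as an absence of globin transcripts.

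The knocked-out gene itself followed the labels. Trp53 (chr11:69580359-69591873, GRCm38, plus strand) was at 59.2 and 68.1 CPM in the Trp53+/+ mice and at 40.3 and 46.1 CPM in the Trp53+/- mice. The genotypes did not overlap, and the 5 Trp53+/- mice of both Ddx41 genotypes were below all 5 Trp53+/+ mice. The mean was 63.7 ± 6.24 CPM (SD, n = 2) in Trp53+/+ and 43.2 ± 4.16 CPM (SD, n = 2) in Trp53+/-, a log2 fold change of -0.55 (SE 0.112), with an adjusted p of 0.0630 in edgeR's quasi-likelihood test. This did not pass the threshold used throughout, which was a fold change over 1.5 with an adjusted p under 0.05. Counts are per gene, and the part of Trp53 that the knockout removes was not separated. Ddx41 was at 13.8 and 16.5 CPM in the Trp53+/+ mice and at 12.5 and 15.6 CPM in the Trp53+/- mice, so the Trp53 genotypes overlapped (log2 fold change -0.09, SE 0.171, adjusted p = 0.985). In the 6 Ddx41+/+ mice Ddx41 was at 21.9 to 26.6 CPM, above all 4 Ddx41+/- mice. A part of Ddx41 (17.38% of its exonic bases) overlaps a gene on the opposite strand, Gm46416.

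**Figure D1:**
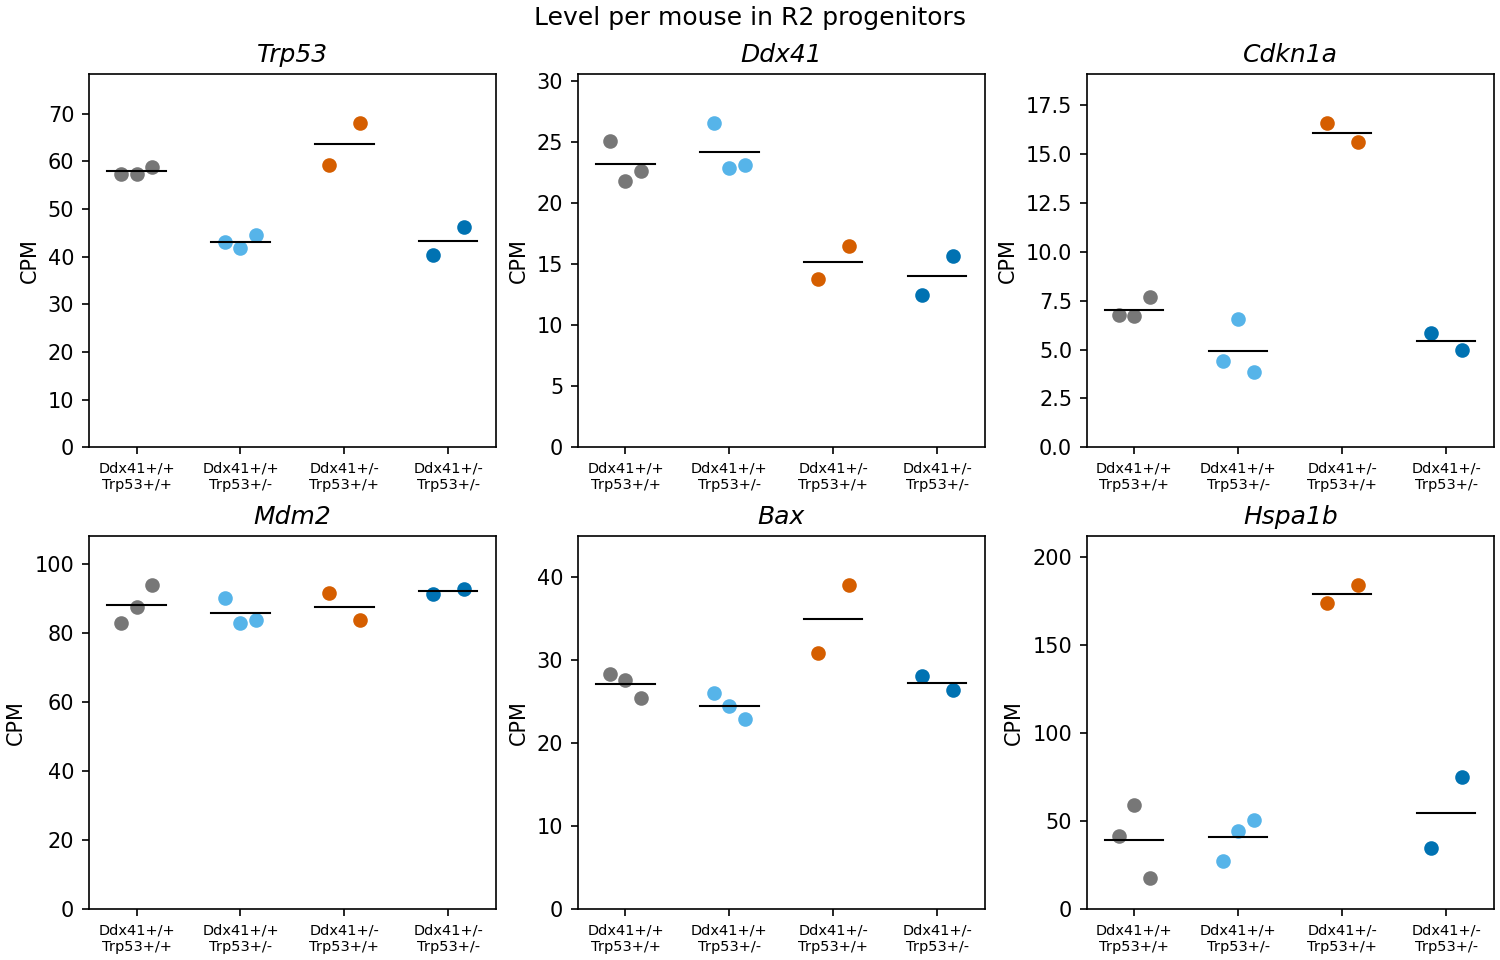
Level of Trp53, Ddx41, Cdkn1a, Mdm2, Bax and Hspa1b in R2 cells, in CPM on linear axes that start at 0. Each point is 1 mouse and each line is the mean of its genotype. Trp53 was lower in all 5 Trp53+/- mice, Ddx41 was lower in all 4 Ddx41+/- mice, and Cdkn1a was highest in the 2 Ddx41+/-Trp53+/+ mice.

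Of 11846 genes tested, 20 were called between the Trp53 genotypes (0.169%), of which 14 were higher in Trp53+/- (0.118%) and 6 were lower (0.0507%). The higher genes were Lyz1, Zfp69, Irgm2, Slc15a2, Myo15, Igtp, Neto2, Gcdh, Ints10, Nap1l1, B3gnt3, Acp1, Prkaca and Cdc42ep3. The lower genes were Clgn, Cdk5rap1, Srpk2, Tbc1d9, Cdkn1a and Atp1b2. B3gnt3, Prkaca and Cdc42ep3 fell outside the rule for named genes and are named after their values were seen. Btg2, Rsad2 and Irgm1, given below, also fell outside that rule. The 2 genotypes did not overlap in any of the 20 genes, beside 37.3% of all tested genes, and the median log2 fold change of all tested genes was -0.00445. At an unadjusted p under 0.05 there were 641 genes (5.41%), and 251 of them also had a fold change over 1.5 (2.12%). In simulated data of the same depth and spread, genes were changed only among those with larger expected counts. In this comparison, 76% of those changed by a log2 of 1 and 98% of those changed by a log2 of 2 were called. The recovery of genes with few counts was not simulated.

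The same Trp53 comparison in the Ddx41+/+ mice, which shares none of these libraries, called 108 of the 11846 genes (0.912%), of which 100 were higher and 8 were lower in Trp53+/-, and 7 of the 108 were B cell markers. The 108 fell to 35 without replicate 24 and to 57 with 1 surrogate variable. It had 3 mice in each group. The lists of calls had 6 genes in common, which is 30% of the 20 and 5.56% of the 108. Irgm2, Igtp, Myo15, Slc15a2 and Atp1b2 had the same direction in both, and Cdk5rap1 had opposite directions. Whether the Trp53 effect differed between the Ddx41 genotypes was tested as an interaction, which called 8 genes (0.0675%), and 7 of them were among the 20.

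**Figure D2:**
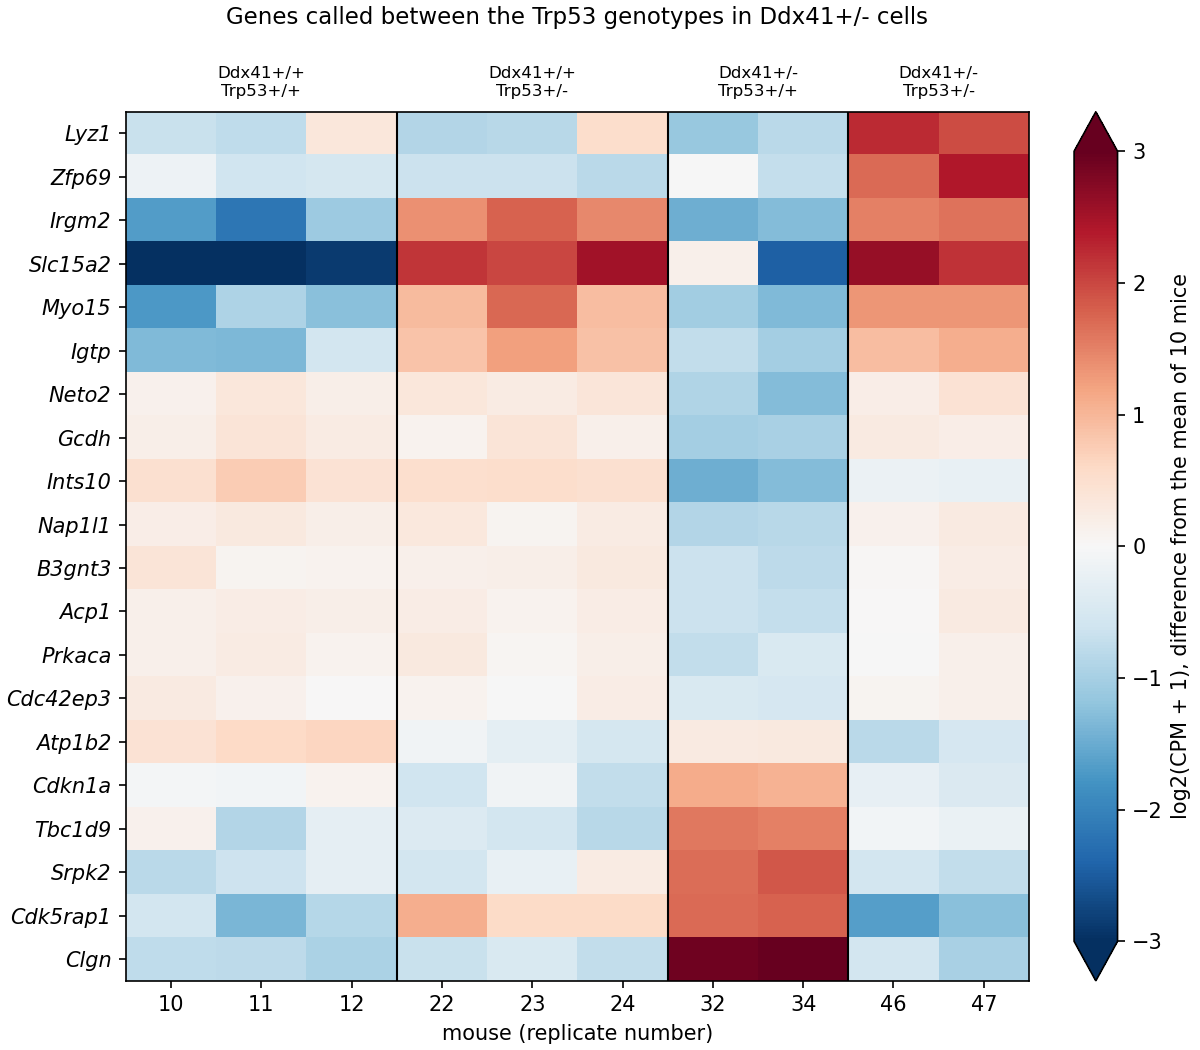
The 20 genes called between the Trp53 genotypes in Ddx41+/- R2 cells, shown in all 10 mice. Color gives log2(CPM + 1) relative to the gene's mean over the 10 mice, with values beyond 3 in either direction drawn at the end of the scale. In 13 genes the 2 Ddx41+/-Trp53+/+ mice are apart from the other 8 mice, in 2 genes the 2 Ddx41+/-Trp53+/- mice are, and in 6 genes all 5 Trp53+/- mice are apart from all 5 Trp53+/+ mice, with Cdkn1a in both the first and the last of these groups.

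The called genes were of 3 kinds when the other 6 mice were read beside the 4 compared. In 6 genes all 5 Trp53+/- mice were apart from all 5 Trp53+/+ mice (2.01% of all tested genes), and these were Irgm2, Igtp, Myo15, Slc15a2, Atp1b2 and Cdkn1a. In 13 genes the 2 Ddx41+/-Trp53+/+ mice were apart from the other 8 mice (6.46% of all tested genes), so that the Ddx41+/-Trp53+/- mice were on the side of both Ddx41+/+ groups. In 2 genes, Lyz1 and Zfp69, the 2 Ddx41+/-Trp53+/- mice were apart from the other 8 (4.6% of all tested genes). Since the genes were chosen on 4 of these mice, the counts are a description.

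Among the p53 targets, Cdkn1a was the gene that changed. It lies at chr17:29090976-29100727 (GRCm38, plus strand), and 7.68% of its exonic bases overlap a gene on the opposite strand, AC167363.2. Cdkn1a was at 16.6 and 15.6 CPM in the Ddx41+/-Trp53+/+ mice and at 5.87 and 4.99 CPM in the Ddx41+/-Trp53+/- mice. Both Trp53+/- mice were well below both Trp53+/+ mice, and the log2 fold change was -1.57 (SE 0.250, adjusted p = 0.00973), a 2.97-fold lower level. In the Ddx41+/+ mice Cdkn1a was at 6.75, 6.71 and 7.68 CPM with Trp53+/+ and at 4.40, 6.55 and 3.84 CPM with Trp53+/-. The Trp53 genotypes did not overlap there either, but the log2 fold change of -0.50 (SE 0.210) was not called (adjusted p = 0.436). The difference between these effects was -1.07 (SE 0.325) on the log2 scale, with an adjusted p of 0.672. The call was lost when any of the 4 mice was left out, with log2 fold changes of -1.69 to -1.45 and adjusted p of 0.0744 to 0.235.

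The promoter of Cdkn1a is shown because, of the 49 listed p53 targets, 40 had a promoter to search and only that of Cdkn1a held a full match to the p53 consensus. The 250 bases before its RefSeq start are given below (GRCm38.p6, chr17:29090729-29090978, plus strand), with 2 copies of the p53 decamer (the 10-base p53 consensus motif, searched on both strands) in capitals. The decamers start 73 and 51 bases before the gene's start.
Cdkn1a promoter: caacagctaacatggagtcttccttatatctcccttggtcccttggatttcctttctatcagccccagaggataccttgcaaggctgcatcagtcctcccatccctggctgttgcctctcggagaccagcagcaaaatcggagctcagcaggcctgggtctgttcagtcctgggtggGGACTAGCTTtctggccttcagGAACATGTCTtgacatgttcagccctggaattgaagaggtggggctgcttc
A full p53 site, meaning a pair of decamers 0 to 13 bases apart, was present in 24 of 32851 RefSeq promoters of 300 bases (0.0731%). Among the 50 promoters of genes in the p53 target lists it was in 1, that of Cdkn1a. A single decamer was present in 8.36% of all promoters and in 15 of the 50 (30%). A match of letters is not evidence of binding, and more distant p53 sites lie outside these windows.

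The other genes of p53-dependent arrest and feedback did not pass the test. Of 20 listed, 18 were tested, 1 was lower (Cdkn1a) and 17 did not pass, beside 0.169% called among all tested genes, and the list's median log2 fold change was -0.0159. Mdm2 was at 91.6 and 83.7 CPM in the Trp53+/+ mice and at 91.3 and 92.9 CPM in the Trp53+/- mice, a log2 fold change of 0.07 (SE 0.0964, adjusted p = 0.981). The levels of Mdm2 overlapped between the genotypes. Btg2, an antiproliferative gene and the most abundant of the list in CPM, was at 614.6 and 630.7 CPM against 674.0 and 624.1 CPM. Of 9 tested apoptosis targets none was called, and the median was -0.124. Bax, which permeabilizes mitochondria in apoptosis, was at 30.9 and 39.1 CPM in the Trp53+/+ mice and at 28.1 and 26.4 CPM in the Trp53+/- mice (log2 fold change -0.35, SE 0.143, adjusted p = 0.845). Eda2r, a death receptor gene, had 16 and 5 counts in the Trp53+/+ mice and 0 counts in both Trp53+/- mice, and was not called (adjusted p = 0.460). Of 17 tested targets in DNA repair and metabolism none was called, with a median of -0.043.

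Stress genes other than p53 targets gave no calls, beside 0.169% called among all tested genes. The heat-shock genes, whose products are chaperones, had 18 tested members, of which 14 had a negative log2 fold change and 4 a positive one, with a median of -0.12. Among all tested genes 6030 values were negative and 5816 positive. Hspa1b was at 173 and 184 CPM in the Trp53+/+ mice and at 34.3 and 74.8 CPM in the Trp53+/- mice (log2 fold change -1.71, SE 0.388, adjusted p = 0.125). Hspa1a was at 87.1 and 72.1 CPM against 17.6 and 36.9 CPM (log2 fold change -1.55, SE 0.436, adjusted p = 0.349). These genes encode the inducible HSP70, and 55.8% and 54.2% of the 75-base stretches of their transcripts also occur in other genes, mostly in each other, so that reads could be split between them. For Hspa1b and Hspa1a both Ddx41+/-Trp53+/+ mice were above the other 8 mice. Of the Ddx41+/-Trp53+/- mice, replicate 47 was above all 6 Ddx41+/+ mice in both genes and replicate 46 was within their range. The log2 fold change was -1.26 without replicate 46 and -2.37 without replicate 47 for Hspa1b, and -1.12 and -2.17 for Hspa1a. Hsp90ab1, a constitutive chaperone gene, was at 670 and 628 CPM against 534 and 509 CPM (log2 fold change -0.32, SE 0.0884, adjusted p = 0.349).

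The 28 immediate-early and ETS genes, transcription factors and signal-responsive genes such as Fos, had a median log2 fold change of 0.0233. None of the 28 was called, beside 0.169% of all tested genes. Fos was at 381 and 322 CPM in the Trp53+/+ mice and at 284 and 161 CPM in the Trp53+/- mice (adjusted p = 0.927). Jun, the partner of FOS in AP-1, was at 283 and 324 CPM against 308 and 301 CPM, and the genotypes overlapped. Ier2 was the member with the smallest p, at 76.5 and 79.8 CPM against 114 and 108 CPM (log2 fold change 0.51, adjusted p = 0.0989). Of 15 tested genes of the integrated stress response none was called (0.169% of all tested genes were), and the median was -0.0678.

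Of 27 tested NF-kB and inflammatory genes none was called (0.169% of all tested genes were), with a median of 0.0507. Tnfaip3, an inhibitor of NF-kB signaling, was at 90.3 and 92.2 CPM in the Trp53+/+ mice and at 119 and 130 CPM in the Trp53+/- mice (log2 fold change 0.45, SE 0.167, adjusted p = 0.799). Nlrp3, an inflammasome sensor, was at 14.8 and 14.1 CPM against 20.7 and 22.5 CPM (log2 fold change 0.58, SE 0.222, adjusted p = 0.831). In both genes the Ddx41+/-Trp53+/- mice were above all other 8 mice. Tnfaip3 was also higher with Trp53+/- in the Ddx41+/+ mice, where it was called (log2 fold change 0.75, SE 0.139, adjusted p = 0.0136). Nlrp3 was not called there (log2 fold change 0.20, adjusted p = 0.802). Tnip1, which encodes a binding partner of the TNFAIP3 protein, was at 35.1 and 40.4 CPM against 23.8 and 23.6 CPM in the Ddx41+/- mice (log2 fold change -0.67, adjusted p = 0.170).

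**Figure D3:**
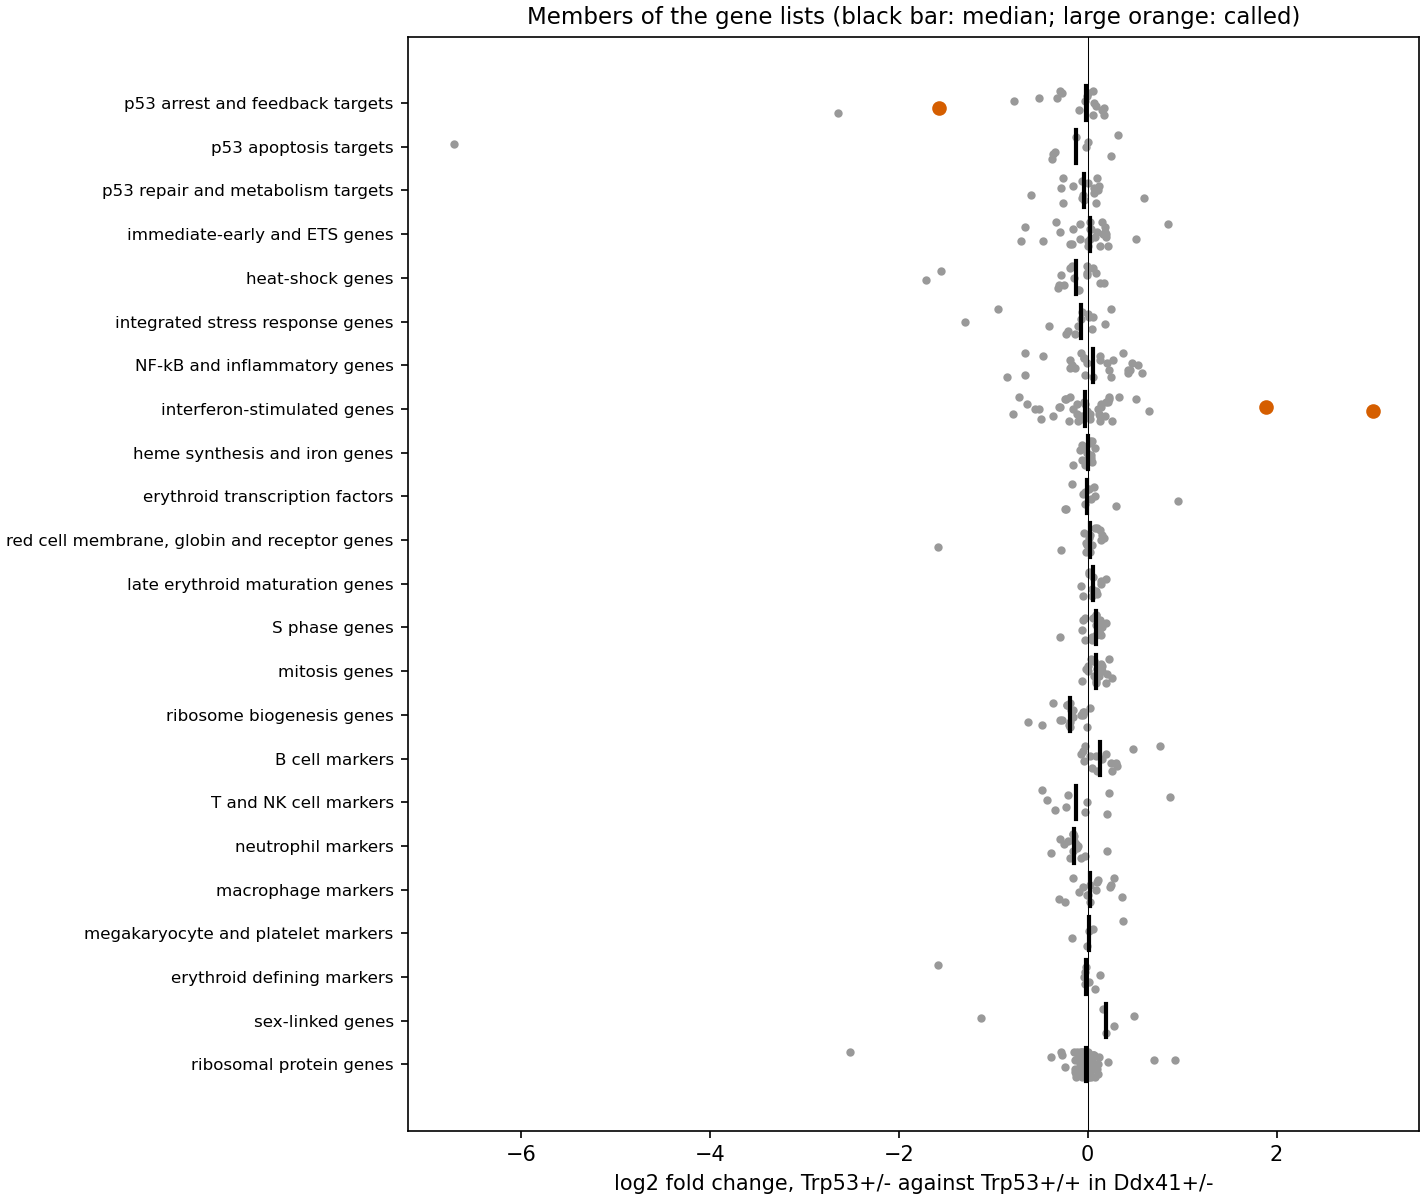
Log2 fold change of each tested member of the gene lists, Trp53+/- against Trp53+/+ in Ddx41+/- R2 cells. Grey points are genes that were not called, large orange points are called genes and black bars are medians. Only Cdkn1a among the p53 targets and Irgm2 and Igtp among the interferon-stimulated genes were called, and the other lists have no orange point.

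Irgm2 and Igtp were higher with Trp53 heterozygosity. They encode immunity-related GTPases, which are induced by interferon-gamma and act on the membranes around intracellular pathogens. Irgm2 (chr11:58199618-58222782, GRCm38, plus strand) was at 20.3 and 22.7 CPM in the Trp53+/+ mice and at 166 and 180 CPM in the Trp53+/- mice. The log2 fold change was 3.02 (SE 0.238, adjusted p = 9.95e-06), which is 8.11-fold. Igtp (chr11:58199556-58207591, plus strand) was at 53.9 and 44.6 CPM against 174 and 194 CPM, a log2 fold change of 1.89 (SE 0.213, adjusted p = 0.000173). The Ddx41+/+ mice gave log2 fold changes of 3.19 (SE 0.191) for Irgm2 and 2.06 (SE 0.173) for Igtp, and the differences from the Ddx41+/- mice were -0.17 (SE 0.294) and -0.17 (SE 0.268). The annotated Irgm2 and Igtp share 4.39% and 8.01% of their exonic bases on the same strand, so a part of their reads cannot be assigned to 1 of them.

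The other interferon-stimulated genes did not pass the test. Of 41 listed and tested, 2 were called, both higher (0.118% of all tested genes were), and 39 were not, and the median log2 fold change was -0.0262. Rsad2, the antiviral gene with the highest CPM in the list, was at 1531 and 1620 CPM in the Trp53+/+ mice and at 1463 and 1667 CPM in the Trp53+/- mice. Irgm1, a related GTPase gene elsewhere on the same chromosome, was at 69.8 and 66.8 CPM against 74.8 and 81.7 CPM (log2 fold change 0.20, adjusted p = 0.946).

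The promoters of Irgm2 and Igtp are shown because these neighboring genes moved together. Both contain TTCNNNGAA, the spacing of a gamma-activated sequence, next to a pair of GAAA separated by 2 bases, the core of an interferon-stimulated response element (ISRE), and these are in capitals in the 250 bases before each RefSeq start (GRCm38.p6, plus strand). The window of Irgm2 is chr11:58214727-58214976 and that of Igtp is chr11:58199306-58199555. The RefSeq start of Irgm2 differs from the start of the gene position given above, so its window lies inside that span. The start of that span lies close to the start of Igtp.
Irgm2 promoter: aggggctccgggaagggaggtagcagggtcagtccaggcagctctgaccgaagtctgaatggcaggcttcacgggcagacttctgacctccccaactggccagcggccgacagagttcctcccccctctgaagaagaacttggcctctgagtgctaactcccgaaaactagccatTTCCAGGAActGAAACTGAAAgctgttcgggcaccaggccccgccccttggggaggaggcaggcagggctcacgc
Igtp promoter: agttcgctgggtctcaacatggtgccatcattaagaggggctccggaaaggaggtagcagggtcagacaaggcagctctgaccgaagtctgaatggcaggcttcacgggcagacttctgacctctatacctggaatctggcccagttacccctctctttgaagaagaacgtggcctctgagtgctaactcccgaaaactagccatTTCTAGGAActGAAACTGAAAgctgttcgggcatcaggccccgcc
On both strands, the ISRE core was present in 3.44% of 32851 promoters of 300 bases, TTCNNNGAA in 8.3% and both in 0.454%. Of the 34 promoters of interferon-stimulated genes, 18 held the ISRE core (52.9%), 8 held TTCNNNGAA (23.5%) and 5 held both (14.7%), so the letters are shared with listed genes that were not called.

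Irgm2 and Igtp lie on the same chromosome as Trp53, and 2 further called genes lie there too. Of 458 tested genes with a midpoint within 20 Mb of the midpoint of Trp53, 4 were called (0.873%), beside 0.169% of all tested genes. Within 10 Mb it was 2 of 253 (0.791%). Myo15, an unconventional myosin gene known for its role in hearing (chr11:60469339-60528369, plus strand), was at 5.35 and 4.19 CPM in the Trp53+/+ mice and at 31.95 and 31.5 CPM in the Trp53+/- mice. Its log2 fold change was 2.70 (SE 0.312, adjusted p = 0.000230), beside 2.75 (SE 0.247) in the Ddx41+/+ mice. Atp1b2, which encodes a subunit of the sodium pump (chr11:69599736-69605942, minus strand), has its midpoint 0.0167 Mb from the midpoint of Trp53. It was at 33.3 and 33.9 CPM against 15.5 and 19.3 CPM, a log2 fold change of -0.95 (SE 0.160, adjusted p = 0.0125), beside -0.90 (SE 0.128) in the Ddx41+/+ mice. The call of Atp1b2 was lost without replicate 32, 34 or 46 (adjusted p up to 0.281). The 4 genes had the same direction in both Ddx41 genotypes. In the Ddx41+/+ mice 9 of the 458 genes were called (1.97%), beside 0.912% of all tested genes in that comparison. All 5 Trp53+/- mice were apart from all 5 Trp53+/+ mice in 22 of the 458 genes (4.8%), beside 2.01% of all tested genes. Chromosomal position and the dose of p53 cannot be told apart for these genes, since every Trp53+/- mouse carries the knockout chromosome.

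**Figure D4:**
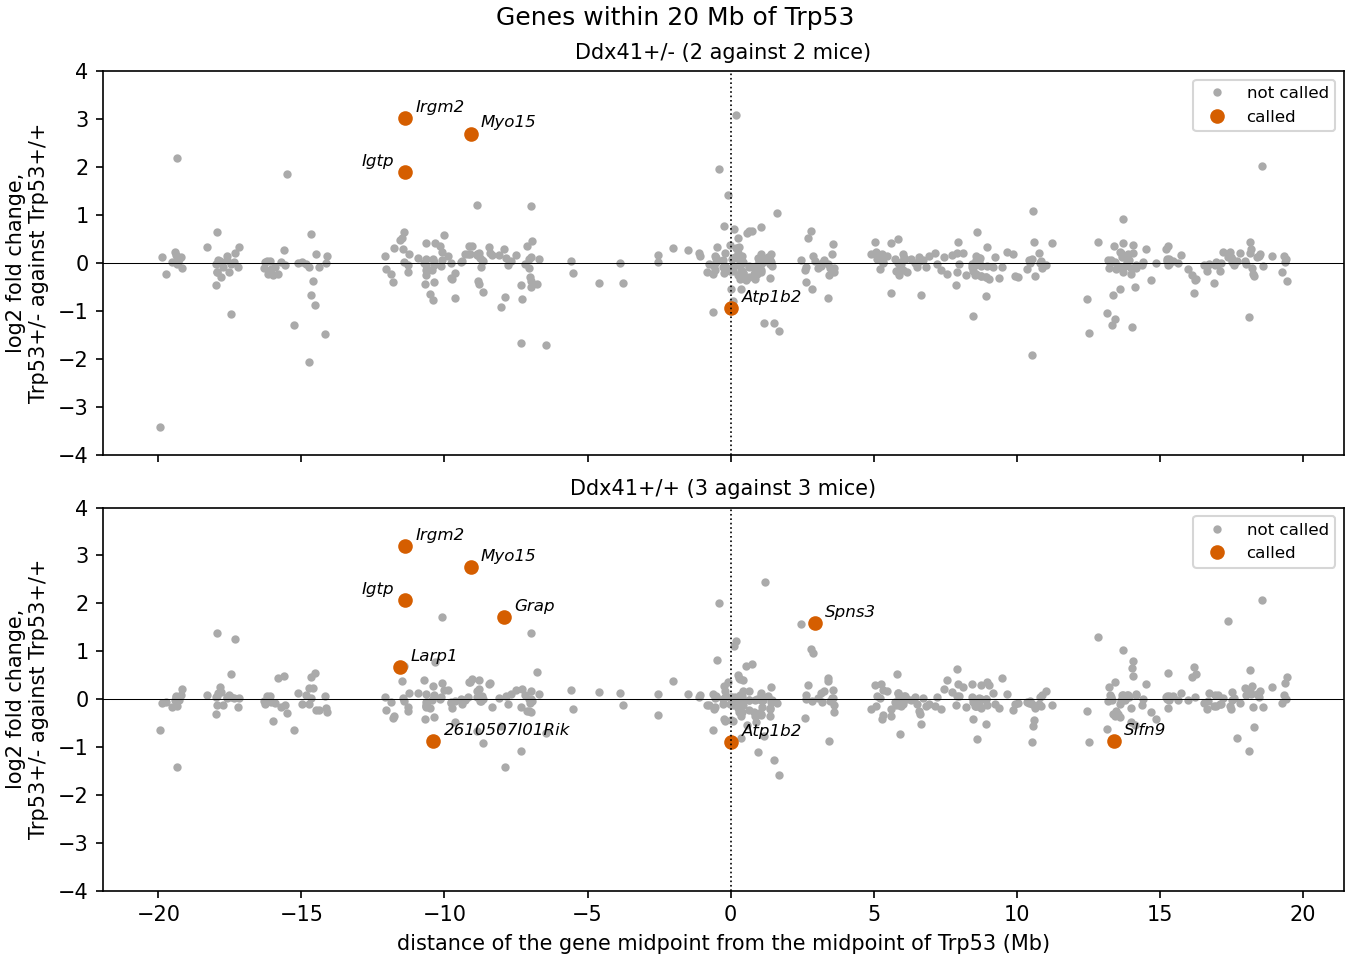
Log2 fold change of the 458 tested genes within 20 Mb of Trp53 by the distance of their midpoint from the midpoint of Trp53 (dotted line), in Ddx41+/- (top) and Ddx41+/+ mice (bottom). Orange points are called genes. Irgm2, Igtp and Myo15 on the left and Atp1b2 next to Trp53 were called in both comparisons, which share no mice.

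Slc15a2, a gene for a proton-coupled peptide transporter on chromosome 16, was also higher in all 5 Trp53+/- mice. It was at 15.1 and 1.65 CPM in the Ddx41+/-Trp53+/+ mice and at 88.1 and 63.9 CPM in the Ddx41+/-Trp53+/- mice. The genotypes did not overlap, and the Trp53+/+ mice were farther apart on a log scale than the Trp53+/- mice. The level was 8.01-fold higher (SE 0.424 on the log2 scale, adjusted p = 0.00250), and the log2 fold change was 2.33 to 5.53 over the alternative settings, the lowest without replicate 34 and the highest without replicate 32. In the Ddx41+/+ mice Slc15a2 was at 0.583 to 0.968 CPM with Trp53+/+ and at 56.6 to 82.2 CPM with Trp53+/-, a log2 fold change of 6.52 (SE 0.472). The difference of -3.52 (SE 0.679) was not called (adjusted p = 0.0872).

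In 13 called genes the Ddx41+/-Trp53+/+ mice stood apart from the other 8 mice. Clgn, which encodes a chaperone of the endoplasmic reticulum known from the testis, was at 14.7 and 15.4 CPM in those mice and at 0.407 and 0.0561 CPM in the Ddx41+/-Trp53+/- mice. The 6 Ddx41+/+ mice had 0.0692 to 0.494 CPM, so Clgn was near the floor in all but the 2 Ddx41+/-Trp53+/+ mice. Its log2 fold change was -5.99 (SE 0.547, adjusted p = 2.08e-05), and it was -7.87 without replicate 46 and -5.17 without replicate 47, which had 7 counts and 1 count. Cdk5rap1, a gene for a mitochondrial tRNA-modifying enzyme, was at 39.6 and 41.5 CPM against 2.96 and 4.26 CPM (log2 fold change -3.48, SE 0.287, adjusted p = 9.95e-06). In the Ddx41+/+ mice Cdk5rap1 had the opposite direction, with 3.84 to 7.59 CPM in Trp53+/+ and 17.6 to 25.9 CPM in Trp53+/- (log2 fold change 1.81, SE 0.222). Srpk2, which encodes a kinase of splicing factors, was at 48.0 and 55.1 CPM against 9.59 and 8.19 CPM (log2 fold change -2.53, SE 0.240). Tbc1d9, a gene of the TBC domain family, was at 20.7 and 19.8 CPM against 5.87 and 5.38 CPM (log2 fold change -1.85, SE 0.304, adjusted p = 0.0114), and its call was lost when any 1 of the 4 compared mice was left out (adjusted p up to 0.235). A part of the exonic bases of Srpk2 (6.99%) and Tbc1d9 (13.91%) overlaps genes on the opposite strand. Among the 13 genes, edgeR's interaction test did not call Cdkn1a, Tbc1d9, Neto2, B3gnt3, Prkaca or Cdc42ep3 (adjusted p of 0.0705 to 0.672).

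Apart from Cdkn1a, the remaining genes of this kind were higher in Ddx41+/-Trp53+/- and were by that nearer to the Ddx41+/+ mice. Nap1l1, a histone chaperone gene, was at 97.9 and 102 CPM in the Ddx41+/-Trp53+/+ mice, at 198 and 221 CPM in the Ddx41+/-Trp53+/- mice and at 194 to 229 CPM in the 6 Ddx41+/+ mice (log2 fold change 1.07, SE 0.0948, adjusted p = 2.01e-05). Of its 75-base stretches, 23.7% also occur in another gene, Gm4204. Gcdh, which encodes a mitochondrial enzyme of lysine breakdown, was at 34.9 and 35.7 CPM against 86.9 and 82.7 CPM (log2 fold change 1.27, SE 0.117), with 77.6 to 94.5 CPM in the Ddx41+/+ mice. Ints10, a subunit of the Integrator complex, was at 32.2 and 35.9 CPM against 79.7 and 76.5 CPM (log2 fold change 1.20, SE 0.116). The 121 to 152 CPM of Ints10 in the Ddx41+/+ mice were above all 4 Ddx41+/- mice. Neto2, a gene for an auxiliary subunit of kainate receptors, was at 5.23 and 3.68 CPM against 12.2 and 14.6 CPM (log2 fold change 1.54, SE 0.214), and its call was lost without replicate 34 (adjusted p = 0.0558). Acp1, a phosphatase gene, was at 175 and 166 CPM against 278 and 332 CPM (log2 fold change 0.84, SE 0.0911). B3gnt3, Prkaca and Cdc42ep3 had log2 fold changes of 0.85, 0.69 and 0.60, and each lost its call when any 1 of at least 3 of the compared mice was left out.

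Of these 13 genes, 7 lie on chromosome 8, namely Ints10, B3gnt3, Tbc1d9, Clgn, Prkaca, Gcdh and Neto2. They make up all called genes of the 636 tested on that chromosome (1.1%, beside 0.169% of all tested genes), and they lie between 68793929 and 85700924 (GRCm38), a span of 16.9 Mb with 186 tested genes (3.76% called). The span was drawn from the calls, so the share is a description. In the Ddx41+/+ comparison 1 of the 186 genes was called, beside 0.912% of all tested genes.

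**Figure D5:**
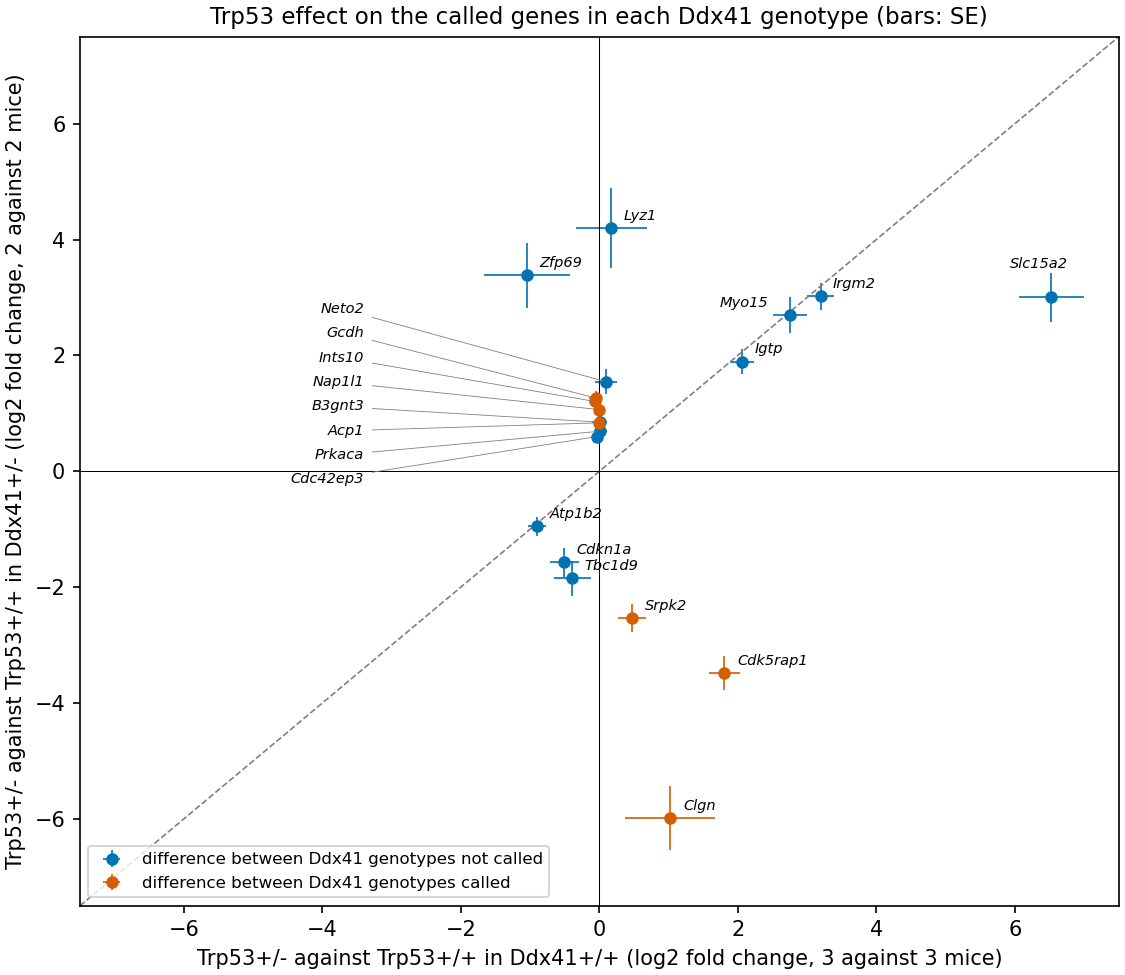
Trp53 effect on the 20 called genes in Ddx41+/- (vertical axis) against the same effect in Ddx41+/+ (horizontal axis), as log2 fold changes with SE; the dashed line marks equal effects. Irgm2, Igtp, Myo15 and Atp1b2 are close to the line, 9 genes with positive changes in Ddx41+/- are close to 0 in Ddx41+/+, and Clgn, Cdk5rap1, Srpk2 and Zfp69 lie farther from 0 with opposite signs.

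Lyz1 and Zfp69 were highest in the 2 Ddx41+/-Trp53+/- mice. The interaction was not called for either gene (adjusted p = 0.175 for Lyz1 and 0.0789 for Zfp69, edgeR's quasi-likelihood test). Lyz1, a lysozyme gene, was at 0.608 and 1.02 CPM in the Ddx41+/-Trp53+/+ mice, at 15.5 and 12.7 CPM in the Ddx41+/-Trp53+/- mice and at 0.900 to 4.07 CPM in the Ddx41+/+ mice (log2 fold change 4.20, SE 0.688, adjusted p = 0.0114). The call of Lyz1 was lost when any 1 of the 4 compared mice was left out (adjusted p up to 0.372). Lyz2, the lysozyme gene of myeloid cells, with which Lyz1 shares sequence (6.22% of its 75-base stretches), was at 1327 and 1041 CPM against 1296 and 924.3 CPM. Zfp69, a KRAB zinc finger gene, was at 1.03 and 0.254 CPM against 5.64 and 9.76 CPM (log2 fold change 3.38, SE 0.559, adjusted p = 0.0114). The log2 fold change was 4.89 without replicate 32 and 2.89 without replicate 34, and the call was lost without replicate 34 or 47 (adjusted p up to 0.409). It was at 0.844 CPM or less in all Ddx41+/+ mice.

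Among the genes of the erythroid program, none of 15 heme synthesis and iron genes, 12 erythroid transcription factor genes, 16 tested red cell membrane, globin and receptor genes or 12 late maturation genes was called, beside 0.169% of all tested genes, and their medians were -0.00157, -0.00926, 0.0201 and 0.0539. Alas2, the first enzyme of heme synthesis in red cells, was at 7410 and 7818 CPM in the Trp53+/+ mice and at 8204 and 7827 CPM in the Trp53+/- mice (log2 fold change 0.07, SE 0.0797). Zfpm1, which encodes the GATA1 cofactor FOG1, was at 1511 and 1928 CPM against 1409 and 1529 CPM (log2 fold change -0.23, adjusted p = 0.900). With 1 mouse left out, the log2 fold change of Zfpm1 was -0.383 to -0.0403.

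Genes of cell division had mostly positive and genes of ribosome production mostly negative log2 fold changes, but none was called, beside 0.169% of all tested genes. Of 20 mitosis genes 18 had a positive log2 fold change (median 0.0884), and of 21 S phase genes 16 did (median 0.0882), beside 5816 positive and 6030 negative values among all tested genes. Top2a, the topoisomerase of mitotic chromosomes, was at 1152 and 1068 CPM in the Trp53+/+ mice and at 1307 and 1349 CPM in the Trp53+/- mice (log2 fold change 0.26, SE 0.0724, adjusted p = 0.349). Of 20 ribosome biogenesis genes 19 had a negative log2 fold change (median -0.187). In the Ddx41+/+ comparison the median was -0.145 for the ribosome biogenesis genes, 0.0138 for the mitosis genes and -0.0204 for the S phase genes. Fbl, which encodes the rRNA methyltransferase fibrillarin, was at 41.7 and 43.8 CPM against 35.5 and 34.3 CPM (log2 fold change -0.29, SE 0.146, adjusted p = 0.927). Of 81 tested ribosomal protein genes none was called either (0.169% of all tested genes were), and the median was -0.0149.

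Transcripts of other cell types were present in the sort and varied between single mice. The 16 tested neutrophil markers summed to 9164 and 6802 CPM in the Trp53+/+ mice and to 9247 and 5440 CPM in the Trp53+/- mice, led by S100a9 with 2314 and 1721 against 2398 and 1319 CPM. Of the 16, 15 had a negative log2 fold change (median -0.15), none was called (0.169% of all tested genes were) and in none were the genotypes apart (37.3% of all tested genes were). Macrophage markers summed to 2005 and 1899 CPM against 2202 and 1618 CPM, led by Lyz2. B cell markers summed to 564.6 and 792.8 CPM against 743.3 and 639.0 CPM, led by Cd74, and their median log2 fold change was 0.126, beside 1.23 in the Ddx41+/+ comparison, in which 7 of 16 tested were called (0.912% of all tested genes were). T and NK cell markers summed to 30.8 and 39.1 CPM against 33.3 and 32.5 CPM, led by Lck. Megakaryocyte markers summed to 100.2 and 98.3 CPM against 98.4 and 102.1 CPM, led by Vwf, with Treml1 at 0. None of the markers of these 5 cell types was called. The sums of each of these 5 lists overlapped between the genotypes. In bulk RNA, fewer cells of a type and less RNA per cell cannot be told apart. The part of other cell types in the level of Lyz1 was not tested.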

How the data were processed

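Poly(A)-selected RNA of sorted CD71+Ter119+ cells was sequenced, with 1 library per mouse. The table that the authors deposited holds unnormalized read counts for 24421 gene symbols in 10 libraries. The submitters' processing notes name FastQC 0.11.7, HISAT2 2.0.5, featureCounts 1.5.2 and the mm10 genome. The annotation and the strand setting of the counting are not given in the sources used here, and the labels name a stranded kit whereas the study's methods name an unstranded one. Mice 35 and 45, which the deposited table is named as leaving out, were not analysed here. A few members of the named lists are not reported here. The labels give no batch, so none could be tested.

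The analysis used edgeR 4.0.16 in R 4.3.3. The filter on low counts by genotype left 11846 genes (12575 removed), libraries were scaled by TMM, and edgeR's quasi-likelihood fit had a mean for each of the 4 genotypes over the 10 libraries. Pooling the spread over all genotypes rests on their having like spreads. Two-sided p-values were adjusted by Benjamini-Hochberg over all tested genes, and called genes had an adjusted p under 0.05 together with more than a 1.5-fold difference. SE is the absolute log2 fold change divided by the square root of F. CPM use the scaled library sizes. Replicate libraries differed by more than sampling noise (chi-square of 6.58 to 16.8 per degree of freedom), and with 2 mice per genotype an exact permutation test of a single value cannot give a p under 0.333. The precision is set by the number of mice, and read counts without molecular identifiers are not independent molecules.

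The comparison, the gene lists and the tests were chosen with earlier results of these data known. Named genes were Trp53, Ddx41, 8 genes tied to the study's question, in each direction the 10 called genes without overlap and with the largest change, the called members of each of 23 lists or otherwise the 3 of smallest p, the most abundant marker of each cell type, genes called in the interaction and called genes near Trp53. Genes named outside this rule included B3gnt3, Prkaca, Cdc42ep3, Btg2, Rsad2, Irgm1, Nnt and Larp1. Positions are from GENCODE M21 (GRCm38) and, for 959 genes, RefSeq, and 86 genes were not placed. Promoters are RefSeq GRCm38.p6, from 250 bases before to 50 after the start, and 17 of the 20 called genes had one. Shared sequence is the percentage of 75-base stretches of the longest transcript found in other genes. The alternatives were DESeq2 1.42.0, its size factors within edgeR, no filter, at least 10 counts in every library, the 4 libraries alone, the likelihood ratio test, an unadjusted p, no fold limit, 1 surrogate variable (sva 3.50.0), thinning to the shallowest library, listed genes of at least 1 CPM, and leaving out each mouse. The model was tested on simulated data, in which 4 unchanged genes of 11846 were called. Figures were drawn in Python 3.11.15 with matplotlib 3.10.9.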

Additional observations from a re-analysis of the deposited data

Results flagged for a closer look

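The effect of Trp53 heterozygosity differed between Ddx41+/- and Ddx41+/+ cells in 8 genes by edgeR's test of the interaction, adjusted over 11846 genes. Nap1l1, Acp1, Ints10 and Gcdh were higher with Trp53+/- in Ddx41+/- cells, and their effect there minus that in Ddx41+/+ cells was 1.07, 0.841, 1.27 and 1.32 on the log2 scale. In these genes both Ddx41+/-Trp53+/+ mice were below the other 8 mice. Cdk5rap1, Srpk2 and Clgn had differences of -5.29, -3.01 and -7.01, with both Ddx41+/-Trp53+/+ mice above the other 8. Mid1, which encodes a ubiquitin ligase of microtubules, had a difference of -3.15. It was at 18.8 and 29.8 CPM in the Ddx41+/-Trp53+/+ mice, at 13.2 and 17.4 CPM in the Ddx41+/-Trp53+/- mice, at 1.17 to 1.45 CPM in the Ddx41+/+Trp53+/+ mice and at 4.31 to 11.4 CPM in the Ddx41+/+Trp53+/- mice. Its own change in Ddx41+/- cells was not called (log2 fold change -0.65, adjusted p = 0.927), and 22.7% of its 75-base stretches also occur in other genes. With 1 mouse left out, the log2 fold change of Mid1 in Ddx41+/- cells was -0.95 to -0.29. The 8 differences had adjusted p of 1.3e-06 to 0.00715.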

How the results depend on the processing

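Of the 20 called genes, 11 were called under every alternative in which they were tested (Irgm2, Igtp, Myo15, Slc15a2, Gcdh, Ints10, Nap1l1, Acp1, Clgn, Cdk5rap1 and Srpk2), and the other 9 lost their call only when 1 of the 4 mice was left out. Cdkn1a, Lyz1, Tbc1d9 and Cdc42ep3 lost it when any 1 of the 4 was left out, B3gnt3 without 32, 34 or 47, Atp1b2 without 32, 34 or 46, Prkaca without 32, 46 or 47, Zfp69 without 34 or 47 and Neto2 without 34. No called gene changed direction. The number called was 36 with DESeq2 (26 higher and 10 lower), 67 with no filter (39 and 28), 37 with the 4 libraries alone (20 and 17), 51 with the likelihood ratio test (34 and 17) and 251 at an unadjusted p (124 and 127), and each of these held all 20. It was 13 to 24 with 1 mouse left out (10 to 16 higher and 3 to 8 lower), with 12 of the 20 remaining without replicate 34. In Ddx41+/+ the 108 calls became 250 with no filter, 219 with the likelihood ratio test, 535 at an unadjusted p and 57 with 1 surrogate variable, and 35 to 115 with 1 mouse left out, the lowest without replicate 24. The 8 interaction calls became 29 with DESeq2, 100 with no filter, 34 with the likelihood ratio test, 378 at an unadjusted p and 8 to 12 with 1 mouse left out. Near Trp53, a window of 10 Mb held 2 called genes in place of 4. The causes were not tested. Trp53 had an adjusted p of 0.00525 with DESeq2, 0.00797 with no filter and 0.00594 with the likelihood ratio test, but its fold change was under 1.5 in these. Of 27 uncalled genes whose values are given, Trp53 included, 7 were called under at least 1 alternative (Hspa1b under 5, Nnt and Tnip1 under 4, Hspa1a under 3, Eda2r under 2, Fos and Larp1 under 1). No paired analysis was possible because the genotypes share no replicate numbers.

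Among single genes, directions changed only in those that were not called. With 1 mouse left out, the log2 fold change was -0.259 to 0.0559 for Ddx41, -0.0807 to 0.109 for Jun, -0.0994 to 0.0797 for Rsad2, -0.0716 to 0.0409 for Slc4a1, -0.617 to 0.256 for S100a9 and -0.36 to 0.137 for Lyz2. Jun was -0.00596 with 1 surrogate variable and -1.56e-05 with the 4 libraries alone. With 1 of the 4 mice left out, the median was -0.126 to -0.0244 for the p53 arrest and feedback targets and -0.299 to -0.00779 for the p53 apoptosis targets. The median of the neutrophil markers was -0.599 to 0.202 and that of the B cell markers -0.149 to 0.392 with 1 of the 4 mice left out. The median also took both signs for the p53 targets in repair and metabolism (-0.0516 to 0.0753), the immediate-early and ETS genes (-0.061 to 0.0765), the integrated stress response (-0.0893 to 0.00705), NF-kB (-0.031 to 0.229), the interferon-stimulated genes (-0.0994 to 0.119), the erythroid transcription factors (-0.00109 to 0.0135), the red cell membrane list (-0.0237 to 0.1), the ribosomal proteins (-0.0671 to 0.0307) and the macrophage markers (-0.177 to 0.202), and that of the heme synthesis genes was 0.000241 to 0.0335.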

Other observations

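Nnt, which encodes the mitochondrial transhydrogenase that is truncated in some C57BL/6 substrains, is given here after its values were seen. It was at 3.77 and 4.06 CPM in the Ddx41+/-Trp53+/+ mice and at 8.48 and 7.79 CPM in the Ddx41+/-Trp53+/- mice, a log2 fold change of 1.06 (SE 0.241, adjusted p = 0.125). In the Ddx41+/+ mice it was at 5.01 to 6.78 CPM with Trp53+/+ and at 11.1 to 13.9 CPM with Trp53+/-, a log2 fold change of 1.17 (SE 0.182, adjusted p = 0.00417). All 5 Trp53+/- mice were above all 5 Trp53+/+ mice.

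Larp1, an RNA-binding regulator of the translation of ribosomal protein mRNAs near Irgm2 on chromosome 11, had a log2 fold change of 0.49 in Ddx41+/- (adjusted p = 0.0595) and of 0.66 in Ddx41+/+ (adjusted p = 0.000466), with all 5 Trp53+/- mice above all 5 Trp53+/+ mice. It was chosen after its values were seen.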
